A study of Homo sapiens with 24 samples.

Results

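The 43 genes described here build, position and regulate the junctions of epithelial cells, and they were taken by name out of 58174 gene symbols in each table. By role they are 14 genes of tight junctions, 5 of cell polarity, 2 of adherens junctions, 8 of desmosomes and their plaques, 5 regulators of epithelial transcription and splicing, 3 of protein sorting and trafficking, and 6 of a surface protease system and epithelial identity. Their levels were compared in HEK293A, an established human cell line of embryonic kidney origin that grows attached to its support. The series set gene expression on a soft and on a stiff matrix side by side, in cells with and without RAP2 GTPases or parts of the Hippo pathway. The cells grew on hydrogels coated with fibronectin, in medium with serum, and every group shares these conditions. Soft gels had a stiffness of 1 kPa and stiff gels one of 40 kPa. Both stiffnesses held 4 genotypes. Besides the wild type (WT) these were a triple knockout by its label (RAP2 tKO: RAP2A, RAP2B, RAP2C) and the double knockouts LATS dKO (LATS1, LATS2) and YAP/TAZ dKO (YAP, TAZ). Each of the 8 groups has 3 biological replicates, per the series design text, and thus 24 libraries in all. The method of editing and the number of clones per line are facts not given in the sources used here. Hence a difference between lines cannot be told apart from a difference between clones.

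Epithelial cells are joined by tight junctions, which seal the space between cells, by adherens junctions, in which catenins tie cadherins to actin, and by desmosomes, which anchor keratin filaments. The PAR and Crumbs polarity complexes decide where these junctions form, and sorting adaptors then deliver proteins to the apical or the basolateral side. Junctions also feed into the Hippo pathway, in which LATS kinases hold back YAP and TAZ (gene WWTR1), coactivators and partners of the TEAD transcription factors. HEK293 cells are known to be of mixed character, with both epithelial keratins and vimentin.

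Values are FPKM, fragments set relative to transcript length and library depth, a level per length that can be compared between genes. Differences are given on the log2(FPKM + 1) scale with their SE, and a gene was called where limma's adjusted p (Benjamini-Hochberg over all 15828 genes tested) was below 0.05. Of genes with low FPKM that scale understates differences. The depth of the libraries, estimated from the deposited intervals, was between 19.7 and 42.98 M fragments. YAP1 was at 30.9 FPKM in WT and 6.06 in YAP/TAZ dKO on 1 kPa, WWTR1 at 27.3 and 10.0, and LATS1 at 12.9 in WT and 5.18 in LATS dKO. LATS2 was not called in LATS dKO. In the libraries labelled RAP2 tKO, RAP2A fell by 0.31, RAP2B rose by 0.26, and RAP2C was not called, so the RNA shows no loss of RAP2B or RAP2C. The line's own KRT8, KRT18, VIM and LIN28B were at 22.5 FPKM or more in every library, while PAX2 did not exceed 1.30 and NEFM 0.0939. Defining markers of immune cells (PTPRC at most 0.0178), endothelial cells (CDH5 at most 0.0401), fibroblasts (DCN at 0) and kidney tubule (UMOD and AQP2 at 0) were at or near 0 throughout. Some less specific marker genes of these cells were detected: CD68 reached 6.62, COL1A1 7.87, COL3A1 11.2 and LRP2 8.57. In bulk RNA, fewer cells that express a gene and less RNA per cell cannot be told apart.

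A pair of libraries stood apart from their groups by the GC content of the genes. RAP2 tKO on 40 kPa replicate 3 differed from the other 2 libraries of its group with a rank correlation with GC across 11957 genes of -0.647, and LATS dKO on 40 kPa replicate 1 with one of -0.640. Some GC-rich members were low in these libraries. LSR was at 13.6 and 9.50 FPKM against a median of 26.6 over all libraries, and JUP at 10.8 and 15.4 against 24.1. CGN, with 56.1% GC, was instead the highest of its group in both, at 18.5 and 26.8 against a median of 15.9. Calls that change without this pair are given beside the members they concern.

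The label of the set held in part, since several of its defining genes were hardly expressed. Of the 43 members, 31 reached the level for testing (3 or more libraries with an FPKM of 1 or higher), and 23 were at 1 FPKM or more in every library. CTNNA1 (alpha-catenin) was the most abundant, with 160 to 443 FPKM and a median of 303. The catenin CTNND1, the kinase PRKCI, the tetraspan protein PERP and PARD3 followed, with medians of 64.1, 57.1, 34.9 and 34.1. The other 12 members stayed below 0.9 FPKM in all libraries and were not tested. These include the classical epithelial surface protein EPCAM (at most 0.146), the protease ST14 (0.327) and its inhibitor SPINT1 (0.753), the transcription factors GRHL2 (0.149, and 0 in 22 libraries) and ELF3 (0.764), the splicing factor ESRP1 (0.0841), the claudins CLDN3 (0 in all 24), CLDN4 (0.457) and CLDN6 (0.898), the polarity protein CRB3 (0.363) and the plaque proteins PPL (0.239) and EVPL (0.0887). The epithelial cadherin gene CDH1, not a member, did not exceed 0.540 in any library. By role, 11 of 14 tight junction, 4 of 5 polarity, both adherens junction, 6 of 8 desmosome and plaque, all 3 sorting, 3 of 6 surface and identity and 2 of 5 transcription and splicing genes could be tested.

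**Figure D1:**
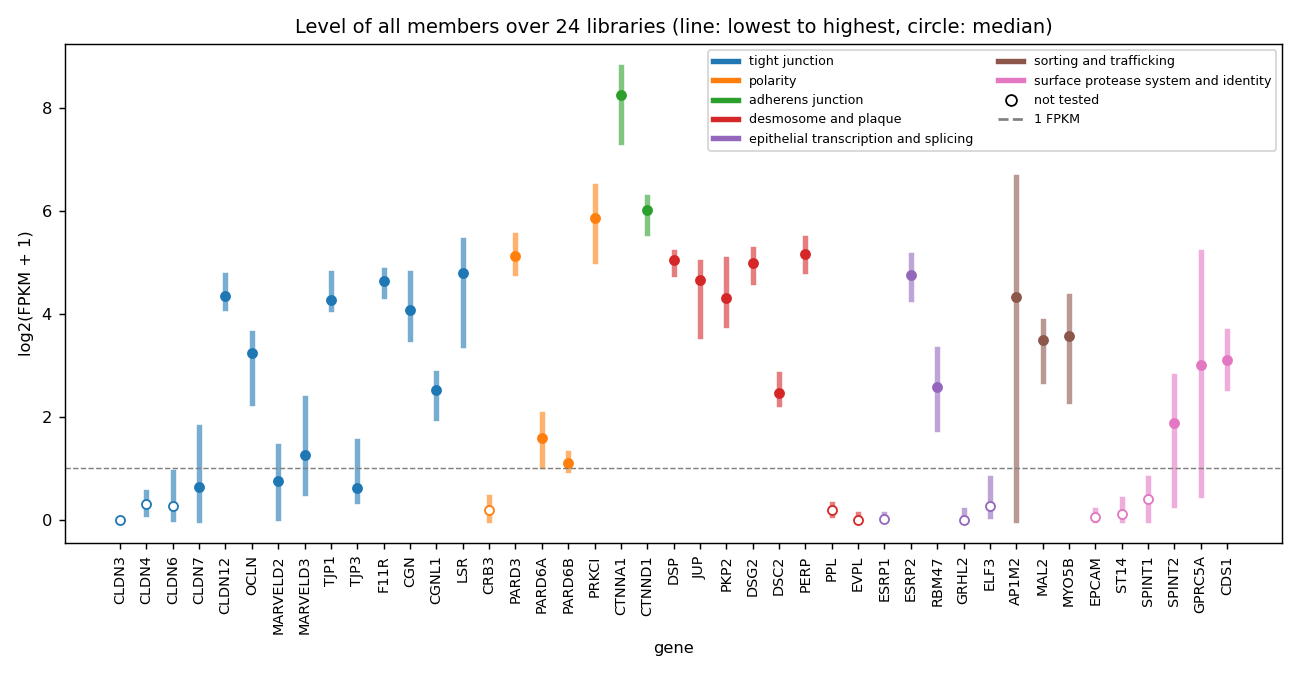
Level of each of the 43 members over the 24 libraries, as log2(FPKM + 1), with a line from the lowest to the highest library and a circle at the median, coloured by role; open circles mark the 12 members that were not tested and the dashed line marks 1 FPKM. CTNNA1 was the most abundant with a median of 303 FPKM, and AP1M2 and GPRC5A had the longest lines among the tested members.

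Over all roles few members were called for the stiffness of the gel and many for the genotype. A stiffness comparison set 3 libraries against 3 and a genotype comparison 6 against 6, so smaller differences could be called between genotypes. In WT, 2 of the 31 tested members rose on 40 kPa and none fell, where 0.986% of all genes were called (0.322% higher and 0.663% lower). In RAP2 tKO 4 rose and none fell (all genes 3.87%, with 0.986% higher and 2.88% lower). In LATS dKO none rose and 1 fell (0.708%, with 0.0885% higher and 0.619% lower). In YAP/TAZ dKO limma called 0 members, with 3 at an unadjusted p under 0.05 (0.347%, with 0.12% higher and 0.227% lower). Against WT, as the mean of both stiffnesses, RAP2 tKO had 6 members higher and 2 lower, beside 16% of all genes called (7.4% higher and 8.57% lower). LATS dKO had 13 higher and 3 lower, beside 33.9% (16% higher and 17.8% lower), and YAP/TAZ dKO 7 higher and 17 lower, beside 50.6% (23.6% higher and 27% lower). The median difference of the tested members was 0.04 in RAP2 tKO, 0.11 in LATS dKO and -0.24 in YAP/TAZ dKO, beside medians of 0.00, -0.01 and 0.00 over all genes. The 3 comparisons share the WT libraries. Between LATS dKO and YAP/TAZ dKO, which share no library, 22 members were higher in LATS dKO and 4 lower (58.1%), with a median difference of 0.38 beside -0.01 over all genes. The members' shares of calls in the last comparison were 71.0% higher and 12.9% lower, beside 29.7% and 28.4% of all genes. Members were chosen with earlier results of these data known, so all these shares are a description and no independent comparison. The 22 higher members include CLDN7 and MARVELD2, which reached 1 FPKM only in groups where they are high.

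**Figure D2:**
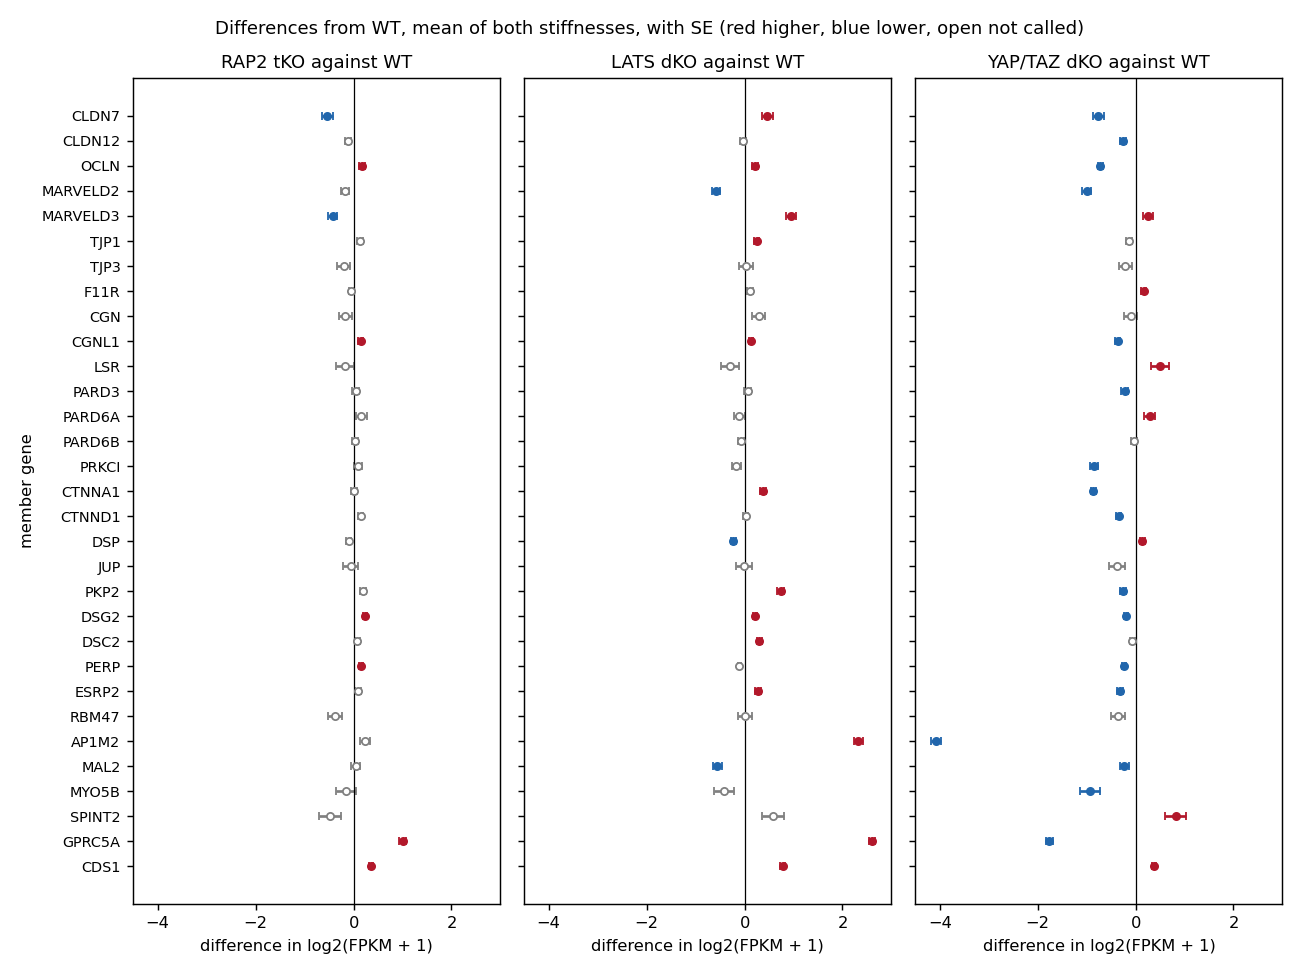
Difference of each of the 31 tested members from WT in each knockout line, as the mean over both stiffnesses on the log2(FPKM + 1) scale, with SE from the fit over 24 libraries; red and blue points were called higher and lower and open points were not called. AP1M2 and GPRC5A lie farthest from 0, above WT in LATS dKO (2.32 and 2.60) and below it in YAP/TAZ dKO (-4.08 and -1.76).

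The sorting genes held the widest range. AP1M2 encodes the mu subunit of the epithelial form of the adaptor complex AP-1, which sorts proteins to the basolateral membrane. Its gene (ENSG00000129354.11 in the tables) lies at chr19:10683347-10697991 in hg19. In WT, AP1M2 was at 13.4, 12.4 and 12.6 FPKM on 1 kPa and at 25.1, 21.4 and 19.02 on 40 kPa. LATS dKO had 90.4, 99.98 and 82.6 on 1 kPa and 84.4, 78.9 and 89.3 on 40 kPa. In YAP/TAZ dKO the gene was listed at 0, 0.0714 and 0.130 on 1 kPa and at 0.0965, 0 and 0 on 40 kPa. All LATS dKO libraries were thus above, and all YAP/TAZ dKO libraries below, every WT library, and the soft and stiff WT libraries did not overlap either. RAP2 tKO had 19.3, 12.5 and 12.04 on 1 kPa and 24.5, 27.7 and 30.2 on 40 kPa, close to WT on the soft gel apart from 1 library. The rise on 40 kPa was 0.72 ± 0.13 in WT (adjusted p = 0.0116), a ratio of means of 1.70, and 0.89 ± 0.13 in RAP2 tKO (adjusted p = 0.000961), a ratio of 1.88. In WT the call was lost without WT on 1 kPa replicate 2 or 3 or WT on 40 kPa replicate 1, where the adjusted p rose above 0.05, and in 2 other settings, while the difference stayed between 0.62 and 0.81. In LATS dKO the difference between the gels was -0.11 (adjusted p = 0.803). The difference of these responses (LATS dKO minus WT, -0.83 ± 0.19) was not called, with an adjusted p of 0.115. For YAP/TAZ dKO minus WT it was -0.76 ± 0.19 (adjusted p = 0.107, and 0.0442 without the GC-skewed pair). In YAP/TAZ dKO AP1M2 was near 0 on both gels, so this difference in the main repeats the WT rise. It cannot show whether a response was lost.

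Against WT, AP1M2 was 2.32 ± 0.094 higher in LATS dKO (adjusted p = 8.52e-13). In YAP/TAZ dKO the difference was -4.08 ± 0.094 (adjusted p = 7.16e-17), and -6.90 with a pseudocount of 0.1, since the level there was near 0. The LATS dKO mean was 7.11 times the WT mean on 1 kPa and 3.86 times on 40 kPa. In RAP2 tKO the difference was 0.24 (adjusted p = 0.103). The 221 tested genes within 5 Mb of AP1M2 had a median difference of 0.08 in YAP/TAZ dKO against WT.

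The bases before the start of AP1M2 are shown because this member differed most. They are the 250 bases before the RefSeq start (GRCh38.p14, chr19:10587313-10587562, minus strand), 5′ to 3′ as the gene is read, with the matches to CAGGTG or its reverse complement CACCTG in capitals. This is a form of the E-box that repressors such as ZEB1 and SNAI2 are known to bind.
AP1M2: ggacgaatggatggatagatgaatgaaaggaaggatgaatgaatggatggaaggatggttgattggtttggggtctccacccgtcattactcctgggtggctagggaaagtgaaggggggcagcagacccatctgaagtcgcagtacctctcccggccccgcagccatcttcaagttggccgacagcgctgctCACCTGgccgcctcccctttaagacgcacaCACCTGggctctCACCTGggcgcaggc
The window has 3 matches, 57 to 52, 27 to 22 and 15 to 10 bases before the start. The RefSeq table held a promoter for 27 of the 43 members, of which 10 (37.0%) had this motif on either strand: AP1M2, CDS1, CRB3, DSC2, DSG2, DSP, ELF3, MYO5B, OCLN and TJP1. Among all 27305 promoters of the same length 17.5% had it. The letters GGAATG (reverse complement CATTCC), the core of TEAD sites, were in 11.9% of all promoters and in 1 of the 27, that of PRKCI, and not in the window of AP1M2. The letters TGANTCA belong to the transcription factor AP-1, which is not the adaptor complex of that name. They were in 6.60% of all promoters and in those of PERP and CLDN4. AACCGGTT, bound by GRHL factors, was in 0.106% and in none of the 27. Such matches describe letters and not binding.

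MYO5B, the myosin that carries recycling endosomes, and MAL2, a protein of transcytosis to the apical side, make up the other sorting genes. MYO5B had 10.4 to 19.2 FPKM in WT (median 14.4) and 3.96 to 10.5 in YAP/TAZ dKO (median 8.41), and fell by 0.93 there (adjusted p = 0.000832). The groups overlapped by a small margin, and the deposited interval of this gene was wide, reaching a median of 45.9% of the value to either side. LATS dKO minus YAP/TAZ dKO was 0.50 for MYO5B (adjusted p = 0.0415, and 0.0819 without the GC-skewed pair). MAL2 was at 10.3 to 12.9 FPKM in WT (median 11.1), at 5.47 to 9.44 in LATS dKO (median 7.48) and at 8.59 to 10.9 in YAP/TAZ dKO (median 9.45). All 6 LATS dKO libraries were below every WT library, and MAL2 fell by 0.56 there (adjusted p = 0.000150). It also fell by 0.23 in YAP/TAZ dKO (adjusted p = 0.0497), a call that held in 12 of 30 alternative settings. The sorting genes thus did not move as one in LATS dKO, where AP1M2 rose and MAL2 fell.

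GPRC5A, a G-protein-coupled receptor of epithelial surfaces induced by retinoic acid, changed nearly as widely (chr12:13043716-13070871 in hg19). Its WT libraries were at 3.57, 2.98 and 3.73 FPKM on 1 kPa and at 7.04, 6.26 and 5.11 on 40 kPa. RAP2 tKO had 8.45, 7.11 and 8.28 on 1 kPa and 13.1, 12.7 and 13.6 on 40 kPa. LATS dKO had 32.8, 30.8 and 33.5 on 1 kPa and 31.9, 33.3 and 35.9 on 40 kPa. In YAP/TAZ dKO the values were 0.713, 0.727 and 1.05 on 1 kPa and 0.581, 0.480 and 0.407 on 40 kPa. From low to high the genotypes stood in the order YAP/TAZ dKO, WT, RAP2 tKO, LATS dKO, with no overlap of any neighbours in that order over both gels, and in WT and RAP2 tKO the stiff libraries were all above the soft ones. The differences from WT were 1.01 ± 0.069 in RAP2 tKO (adjusted p = 1.10e-08), 2.60 ± 0.069 in LATS dKO (adjusted p = 1.36e-15) and -1.76 ± 0.069 in YAP/TAZ dKO (adjusted p = 2.42e-13, and -2.67 with a pseudocount of 0.1).

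On 40 kPa GPRC5A rose by 0.68 ± 0.098 in WT (adjusted p = 0.00120) and by 0.67 ± 0.098 in RAP2 tKO (adjusted p = 0.000914), ratios of means of 1.79 and 1.66. In LATS dKO the difference was 0.06 and in YAP/TAZ dKO -0.29 (adjusted p = 0.874 and 0.358). The response in YAP/TAZ dKO was lower than that in WT by 0.98 ± 0.14, an interaction with an adjusted p of 0.00137, called in all 30 alternative settings, and the 1 member so called (all genes 0.392%, with 0.259% higher and 0.133% lower). In LATS dKO the difference from the WT response was -0.63 ± 0.14 (adjusted p = 0.102). By limma, 0 members were called in the interactions of RAP2 tKO (all genes 0.0505%, with 0.0126% higher and 0.0379% lower) and LATS dKO (0.0632%, with 0.019% higher and 0.0442% lower), where 1 and 5 members had an unadjusted p under 0.05.

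**Figure D3:**
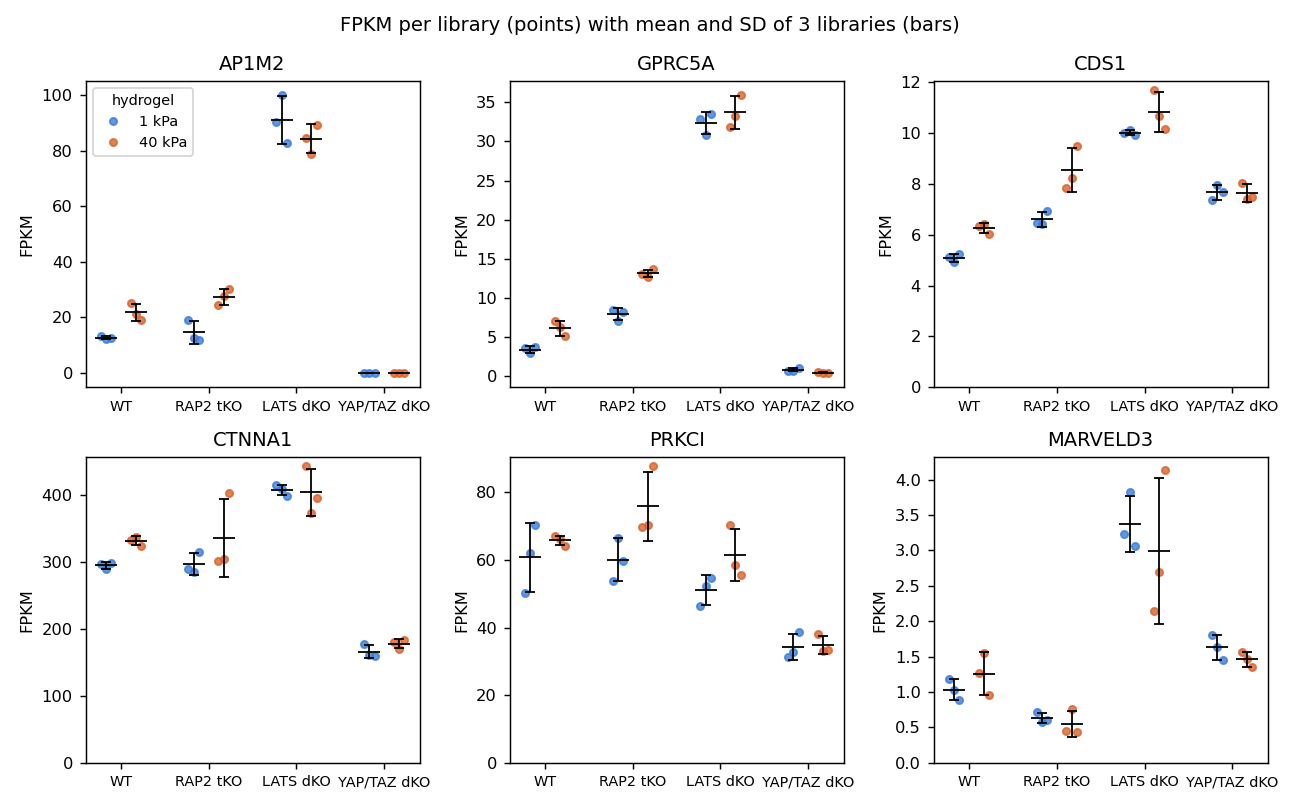
FPKM of AP1M2, GPRC5A, CDS1, CTNNA1, PRKCI and MARVELD3 in each of 24 libraries (points; blue 1 kPa, orange 40 kPa) with the mean and SD of 3 libraries (black bars). AP1M2 and GPRC5A were lowest in YAP/TAZ dKO and highest in LATS dKO, while CDS1 was lowest in WT (4.91 to 6.43 FPKM).

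CDS1, which makes CDP-diacylglycerol for phosphoinositide synthesis, was above WT in each knockout line. Its WT libraries were at 5.13, 4.91 and 5.24 FPKM on 1 kPa and 6.35, 6.43 and 6.05 on 40 kPa. RAP2 tKO had 6.45, 6.42 and 6.94 and then 7.85, 8.24 and 9.51, LATS dKO 10.01, 10.1 and 9.91 and then 11.7, 10.7 and 10.1, and YAP/TAZ dKO 7.37, 7.97 and 7.69 and then 8.03, 7.40 and 7.48. The LATS dKO and YAP/TAZ dKO libraries were all above every WT library, and RAP2 tKO overlapped WT only where its soft libraries are set against stiff WT ones. CDS1 rose by 0.35 ± 0.044 in RAP2 tKO, by 0.78 ± 0.044 in LATS dKO and by 0.38 ± 0.044 in YAP/TAZ dKO (adjusted p = 1.89e-05, 1.23e-10 and 8.83e-07), against the same WT libraries. On 40 kPa it rose by 0.32 in RAP2 tKO (adjusted p = 0.00697). In WT the difference was 0.26 (adjusted p = 0.0587), and without the pair of GC-skewed libraries, which leaves WT as it was and changes the shared spread, the adjusted p was 0.00329. The CDS1 interaction of YAP/TAZ dKO with WT was -0.26 (adjusted p = 0.312, and 0.0374 without the pair).

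SPINT2, an inhibitor of matriptase, the ST14 protease, was the last tested gene of this group. It had 0.731 to 3.44 FPKM in WT (median 1.99) and 2.98 to 5.91 in YAP/TAZ dKO (median 4.09), and it rose by 0.82 ± 0.22 there (adjusted p = 0.00439), with some overlap. In LATS dKO it was at 2.28 to 4.43 (median 3.43), a difference from WT of 0.58 (adjusted p = 0.0512, and 0.0359 without the GC-skewed pair). Its protease partner ST14 stayed at 0.327 FPKM or less.

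Of the 11 tested tight junction genes, 5 rose and 1 fell in LATS dKO, beside 33.9% of all genes called. YAP/TAZ dKO had 3 that rose and 5 that fell, beside 50.6%, and in RAP2 tKO 2 rose and 2 fell, beside 16%. The 3 MARVEL proteins, which with the claudins form the strands, took separate courses. OCLN (occludin) was at 7.25 to 8.52 FPKM in WT (median 8.18), at 9.17 to 10.1 in LATS dKO (median 9.40) and at 3.83 to 4.98 in YAP/TAZ dKO (median 4.66). The 3 genotypes did not overlap, with differences of 0.21 (adjusted p = 0.00703) and -0.72 ± 0.057 (adjusted p = 4.81e-09). MARVELD2 (tricellulin), which seals the corners where cells meet, was at 0.908 to 1.71 FPKM in WT (median 1.05), at 0.329 to 0.670 in LATS dKO (median 0.359) and at 0.0304 to 0.115 in YAP/TAZ dKO (median 0.0701). It was below every WT library in both lines, with differences of -0.59 and -0.999. MARVELD2 reached 1 FPKM in WT and RAP2 tKO libraries alone, the groups where it is high, so these differences are given as a description. MARVELD3 was at 0.887 to 1.56 FPKM in WT (median 1.11), at 0.437 to 0.761 in RAP2 tKO (median 0.593) and at 2.14 to 4.14 in LATS dKO (median 3.15). No library of those 2 lines overlapped WT, and the differences were -0.43 ± 0.10 and 0.95 ± 0.10 (adjusted p = 0.00597 and 5.85e-07). YAP/TAZ dKO had MARVELD3 at 1.36 to 1.81 (median 1.51), with a rise of 0.25 (adjusted p = 0.0444) that held in 15 of 30 alternative settings. MARVELD2 and MARVELD3 are low, and with a pseudocount of 0.1 their differences grew, for MARVELD2 to -1.25 in LATS dKO and -2.87 in YAP/TAZ dKO, and for MARVELD3 to -0.86 in RAP2 tKO and 0.42 in YAP/TAZ dKO.

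Among the claudins, the strand proteins that set which ions pass, only CLDN7 and CLDN12 could be tested. CLDN7 had 0.523 to 1.61 FPKM in WT (median 0.962), 0.143 to 0.680 in RAP2 tKO (median 0.265), 1.10 to 2.48 in LATS dKO (median 1.60) and 0 to 0.261 in YAP/TAZ dKO (median 0.149). Every YAP/TAZ dKO library was below every WT library, while the other lines overlapped WT. CLDN7 was lower by 0.54 in RAP2 tKO and by 0.76 in YAP/TAZ dKO, and higher by 0.46 in LATS dKO. It reached 1 FPKM in LATS dKO libraries and WT libraries on 1 kPa alone, the groups where it is high. These differences are thus given as a description. With a pseudocount of 0.1 the differences were -1.29, -2.19 and 0.80, and the last was no longer called (adjusted p = 0.0642). The deposited intervals of CLDN7 reached a median of 72.7% of the value to either side. CLDN12 was at 16.7 to 25.8 FPKM in WT (median 20.6) and 16.4 to 18.6 in YAP/TAZ dKO (median 16.7), a fall of 0.26 with overlap (adjusted p = 0.00209). The untested CLDN6, an early embryonic claudin, was at 0.390 to 0.898 FPKM in LATS dKO and at most 0.321 in every other library. Its deposited intervals reached a median of 148% above the value, so these levels are given as a description.

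The cytoplasmic plaque and the receptors of the tight junction moved less. TJP1 (ZO-1), the scaffold of the plaque, had 17.04 to 19.7 FPKM in WT (median 18.2) and 19.99 to 26.6 in LATS dKO (median 20.8), and rose by 0.24 without overlap (adjusted p = 0.00339). Its YAP/TAZ dKO libraries, at 16.1 to 16.6 (median 16.4), were below every WT library, a difference of -0.14 (adjusted p = 0.0635, and 0.00532 without the GC-skewed pair). CGNL1 (paracingulin), which links junctions to RhoA and Rac1 regulation, was at 3.75 to 5.11 in WT (median 4.38) and at 2.94 to 3.45 in YAP/TAZ dKO (median 3.19), and fell by 0.37 (adjusted p = 3.46e-06). Its rises of 0.15 in RAP2 tKO and 0.13 in LATS dKO (adjusted p = 0.0429 and 0.0399) held in 9 and 19 of 30 alternative settings, and the first was lost without the GC-skewed pair (adjusted p = 0.0555). Between the gels CGNL1 differed by 0.27 in WT (adjusted p = 0.0694, and 0.00452 without the pair). OCLN, at 8.29 to 11.4 in RAP2 tKO, rose there by 0.17 (adjusted p = 0.0472), a call kept in 8 of 30 and lost without the pair (adjusted p = 0.0775). LSR, the angulin that recruits tricellulin, had 23.4 to 29.6 FPKM in WT (median 26.6) and 33.6 to 42.5 in YAP/TAZ dKO (median 37.7). Its YAP/TAZ dKO libraries were all above WT, and the rise was 0.49 ± 0.18 (adjusted p = 0.0326). The call held in 23 of 30 alternative settings; it was lost with no filter and without WT on 1 kPa replicate 3, WT on 40 kPa replicate 2 or 3, YAP/TAZ dKO on 1 kPa replicate 2, or YAP/TAZ dKO on 40 kPa replicate 2 or 3 (adjusted p up to 0.0681). LSR was not called in LATS dKO, with or without the GC-skewed pair. F11R (JAM-A), an adhesion receptor that recruits PARD3, rose by 0.16 in YAP/TAZ dKO with overlap (adjusted p = 0.0180, lost without YAP/TAZ dKO on 1 kPa replicate 1 at 0.0607). In LATS dKO the difference of F11R was 0.11 (adjusted p = 0.120), and 0.14 without the GC-skewed pair (adjusted p = 0.0194). CGN (cingulin, 10.4 to 26.8 FPKM over all libraries) and TJP3 (0.293 to 1.90) were not called in any line against WT.

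In YAP/TAZ dKO 1 of the 4 tested polarity genes rose and 2 fell, beside 23.6% of all genes higher and 27% lower, and in RAP2 tKO and LATS dKO limma called none of the 4. Without the GC-skewed pair PARD6A was called in RAP2 tKO (0.25, adjusted p = 0.0413) and PRKCI in LATS dKO (-0.22, adjusted p = 0.0371). PRKCI, the atypical kinase PKC iota of the PAR complex (chr3:169940153-170023769 in hg19), had 50.1 to 70.3 FPKM in WT (median 65.2) and 31.4 to 38.7 in YAP/TAZ dKO (median 33.2). All YAP/TAZ dKO libraries were below every WT library, with a fall of 0.85 ± 0.087 (adjusted p = 1.66e-07). Its scaffold PARD3 was at 31.9 to 37.6 in WT (median 34.8) and at 26.9 to 31.6 in YAP/TAZ dKO (median 29.2), and fell by 0.22 (adjusted p = 0.00762). PARD6A, the adaptor between CDC42 and the kinase, was at 1.57 to 2.02 in WT (median 1.76) and 2.13 to 3.16 in YAP/TAZ dKO (median 2.23), and rose by 0.29 (adjusted p = 0.0405) without overlap, in 17 of 30 alternative settings. PARD6B, at 0.956 to 1.46 FPKM in all libraries, was not called in any line. LATS dKO minus YAP/TAZ dKO was -0.40 for PARD6A and 0.68 for PRKCI (adjusted p = 0.00532 and 1.96e-06).

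The promoter of PRKCI is shown as the 1 promoter among the 27 with TEAD letters. It runs from 250 to 61 bases before the RefSeq start (GRCh38.p14, chr3:170222174-170222363, plus strand), with the match to CATTCC in capitals, 135 to 130 bases before the start.
PRKCI: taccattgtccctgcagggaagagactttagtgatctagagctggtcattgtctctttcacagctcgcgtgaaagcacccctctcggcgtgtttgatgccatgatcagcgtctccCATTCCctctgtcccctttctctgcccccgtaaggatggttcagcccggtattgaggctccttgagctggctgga
A further match, GGAATG, lies 39 to 34 bases before the start, in the stretch not printed because another annotated transcript begins there.

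Both adherens junction genes fell in YAP/TAZ dKO, where 27% of all genes did. CTNNA1, which ties the cadherin complex to actin (chr5:137946656-138270723 in hg19), was at 297, 289 and 299 FPKM on 1 kPa and at 334, 338 and 324 on 40 kPa in WT. LATS dKO had 415, 409.8 and 399 on 1 kPa and 443, 374 and 396 on 40 kPa, and YAP/TAZ dKO 177, 162 and 159.7 on 1 kPa and 181, 170.4 and 183 on 40 kPa. The 3 genotypes did not overlap: all LATS dKO libraries were above WT and all YAP/TAZ dKO libraries below. CTNNA1 rose by 0.37 ± 0.060 in LATS dKO (adjusted p = 8.34e-05), a ratio of means of 1.30, and fell by 0.86 ± 0.060 in YAP/TAZ dKO (adjusted p = 8.69e-10), to 0.549 of the WT mean. Between the gels CTNNA1 differed by 0.17 in WT (adjusted p = 0.444, and 0.0301 without the GC-skewed pair). CTNND1 (p120-catenin), which keeps cadherins at the membrane, had 61.4 to 65.4 FPKM in WT (median 63.7) and 46.3 to 53.7 in YAP/TAZ dKO (median 50.3), a fall of 0.34 without overlap (adjusted p = 2.43e-05). In RAP2 tKO CTNND1 was at 65.6 to 76.0, above every WT library, with a difference of 0.15 (adjusted p = 0.0698, and 0.00440 without the GC-skewed pair).

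Desmosomal genes changed by smaller amounts, with PKP2 as the exception. PKP2 (plakophilin 2), which binds desmoplakin to the desmosomal cadherins, had 17.4 to 19.3 FPKM in WT (median 18.2), 28.99 to 32.5 in LATS dKO (median 30.7) and 12.8 to 17.5 in YAP/TAZ dKO (median 14.9). It rose by 0.73 ± 0.067 in LATS dKO (adjusted p = 8.22e-08), clear of WT, and fell by 0.26 in YAP/TAZ dKO with overlap (adjusted p = 0.00342). The cadherin DSG2 was at 27.5 to 30.1 FPKM in WT (median 28.2), 31.4 to 37.4 in RAP2 tKO (median 32.9), 31.1 to 35.0 in LATS dKO (median 33.2) and 23.4 to 26.9 in YAP/TAZ dKO (median 24.4). None of these lines overlapped WT, and the differences were 0.23, 0.21 and -0.20 (adjusted p = 0.00136, 0.00129 and 0.00120). Its partner cadherin DSC2 rose by 0.30 in LATS dKO (adjusted p = 0.000168).

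DSP (desmoplakin), the link to keratin filaments, ran the other way. It had 30.8 to 33.3 FPKM in WT (median 32.5), 26.4 to 29.4 in LATS dKO (median 27.2) and 35.2 to 35.8 in YAP/TAZ dKO (median 35.6). The 3 genotypes did not overlap, and DSP fell by 0.23 in LATS dKO and rose by 0.13 in YAP/TAZ dKO (adjusted p = 0.00111 and 0.0264). The latter call was lost without WT on 1 kPa replicate 1 or WT on 40 kPa replicate 2. In RAP2 tKO the difference of DSP was -0.10 (adjusted p = 0.189), and -0.15 without the GC-skewed pair (adjusted p = 0.000536). PERP, a desmosomal tetraspan protein and p53 target, was at 33.7 to 36.9 FPKM in WT (median 36.3), 38.8 to 43.5 in RAP2 tKO (median 39.3) and 27.6 to 33.4 in YAP/TAZ dKO (median 30.4). It rose by 0.15 in RAP2 tKO and fell by 0.24 in YAP/TAZ dKO (adjusted p = 0.0125 and 6.90e-05). PERP differed by -0.10 in LATS dKO (adjusted p = 0.0528), and by -0.14 without the GC-skewed pair (adjusted p = 0.000299). Between the gels it differed by -0.23 in YAP/TAZ dKO, and its interaction with WT was -0.27 (adjusted p = 0.111 and 0.214, and 0.00202 and 0.00697 without the pair). JUP (plakoglobin) was at 22.8 to 27.3 in WT (median 24.1) and 17.7 to 20.2 in YAP/TAZ dKO (median 18.1), below every WT library. JUP was not called, with a difference of -0.38 (adjusted p = 0.0544), but without the GC-skewed pair, in which it was low, the same difference had an adjusted p of 9.22e-06. LATS dKO minus YAP/TAZ dKO was 0.37 for JUP (adjusted p = 0.0543), and 0.50 without the pair (adjusted p = 5.97e-07).

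Of the regulators, ESRP2, a splicing factor of epithelial isoforms, was at 24.4 to 26.5 FPKM in WT (median 25.6), 26.0 to 34.2 in LATS dKO (median 32.2) and 18.7 to 21.3 in YAP/TAZ dKO (median 20.6). It rose by 0.27 in LATS dKO with overlap (adjusted p = 0.00301) and fell by 0.32 in YAP/TAZ dKO without overlap (adjusted p = 0.000396). RBM47, an RNA-binding protein of epithelial cells, was the 1 member called lower on the stiff gel. In LATS dKO it was at 8.91, 7.90 and 7.37 FPKM on 1 kPa and at 3.03, 5.05 and 3.47 on 40 kPa, a fall of 0.92 ± 0.21 (adjusted p = 0.0480). RAP2 tKO went from 2.49, 2.81 and 3.29 on 1 kPa to 4.81, 6.08 and 5.91 on 40 kPa, a rise of 0.77 ± 0.21 (adjusted p = 0.0456). The gels did not overlap in either line, but the calls held in only 4 and 10 of 30 alternative settings and were lost without the GC-skewed pair (adjusted p = 0.0705 and 0.0845), and the deposited interval of RBM47 reached a median of 60.5% of the value to either side. YAP/TAZ dKO libraries of RBM47 went from 7.70, 4.02 and 6.74 to 3.03, 2.41 and 2.76 (difference -0.90, adjusted p = 0.0753, and 0.0329 without the pair). Its interaction with WT was -1.26 (adjusted p = 0.0806, and 0.0347 without the pair), and its difference from WT over both gels -0.36 (adjusted p = 0.0505, and 0.0466 without the pair). That value averages opposite differences. The YAP/TAZ dKO mean of RBM47 was 1.26 times the WT mean (4.90 FPKM) on 1 kPa and 0.42 times the WT mean (6.48) on 40 kPa.

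Some members lay, in YAP/TAZ dKO, among genes that were lower as a whole. The 52 tested genes within 5 Mb of OCLN and MARVELD2, neighbours on chromosome 5, had a median difference from WT of -0.57, and 43 of them were called lower. Around PRKCI on chromosome 3 the median of 26 genes was -0.62, with 21 called lower. OCLN, at -0.72, was thus 0.15 below the median of its neighbours, PRKCI 0.23 below and MARVELD2 0.42 below. CTNNA1 (neighbour median -0.25), CTNND1 (-0.26), CLDN12 (-0.37) and GPRC5A (-0.22) had the same, more weakly, and so 7 of the 17 members that fell had a neighbour median below -0.2. Of the 7 that rose, MARVELD3 and PARD6A had neighbour medians of 0.23. In RAP2 tKO and LATS dKO no called member had a neighbour median beyond 0.2 in its own direction. The same counts were not made for all genes called, so those given here describe the members and cannot set them apart. The part of such regional differences in these results was not tested.

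**Figure D4:**
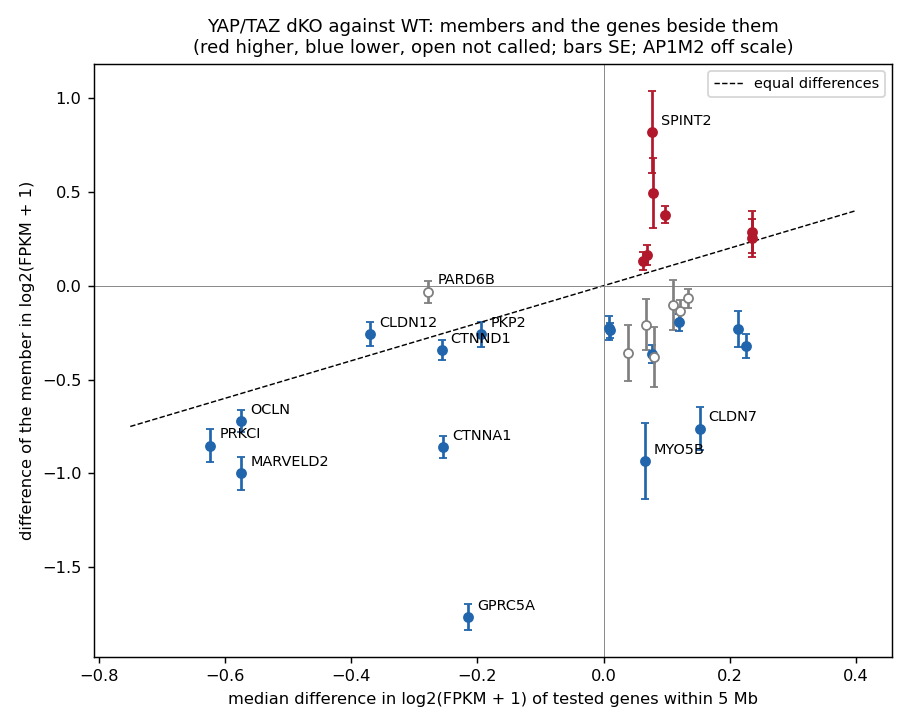
Difference of each tested member between YAP/TAZ dKO and WT (vertical axis, log2(FPKM + 1), bars SE) against the median difference of the tested genes within 5 Mb of it (horizontal axis, same scale); the dashed line marks equal differences and AP1M2, at -4.08 with a neighbour median of 0.08, is off the scale. PRKCI, OCLN and MARVELD2 lie at neighbour medians of -0.62 and -0.57, while MYO5B and CLDN7 fell among genes with medians of 0.07 and 0.15.

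Set directly against YAP/TAZ dKO, LATS dKO showed the widest contrasts, led by AP1M2 (6.40 ± 0.094, adjusted p = 4.38e-20), GPRC5A (4.37 ± 0.069, adjusted p = 1.23e-19), CTNNA1 (1.23 ± 0.060), CLDN7 (1.22 ± 0.12) and PKP2 (0.99 ± 0.067). For GPRC5A the ratio of means was 50.05. Each of these 5 was without overlap between the 12 libraries. The value of CLDN7 is a description, since it reached 1 FPKM only in groups where it is high. The 4 members lower in LATS dKO were LSR (-0.79), PARD6A (-0.40), DSP (-0.36) and MAL2 (-0.33), of which the first 3 did not overlap (adjusted p = 0.00119, 0.00532, 3.01e-06 and 0.00658). LSR reached 31.6 FPKM in LATS dKO and was not below 33.6 in YAP/TAZ dKO. Its lowest LATS dKO library, at 9.50, was the GC-skewed one. The difference of LSR ran from -0.90 to -0.59 over 30 alternative settings and was called in each. By role, 8 of 11 tight junction, 4 of 6 desmosome and both adherens junction genes were higher in LATS dKO, and 1 tight junction and 1 desmosome gene lower, beside 29.7% of all genes higher and 28.4% lower. Of the 22 higher members, 5 had a neighbour median above 0.2, a count that was likewise not made for all genes called. CLDN12 (0.23 beside 0.45) and MARVELD2 (0.41 beside 0.68) differed less than their neighbours, PRKCI about as much (0.68 beside 0.67), and OCLN and CTNND1 more. MARVELD2, counted here, stayed below 1 FPKM in both lines.

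A further list of 55 junction and polarity genes outside the set held 34 that were tested. In LATS dKO 10 were higher and 8 lower than WT, beside 16% and 17.8% of all genes. YAP/TAZ dKO had 10 higher and 11 lower, beside 23.6% and 27%, and in RAP2 tKO 4 higher and 2 lower, beside 7.4% and 8.57%. LATS dKO against YAP/TAZ dKO had 16 higher and 11 lower, beside 29.7% and 28.4%. PRKCZ, the atypical kinase related to PRKCI, was at 25.9 ± 0.91 (SD, n = 3) FPKM in WT and 40.6 ± 2.4 in YAP/TAZ dKO on 1 kPa. PRKCZ rose there by 0.67 (adjusted p = 1.19e-08) where PRKCI fell, and in LATS dKO it fell by 0.38 (adjusted p = 3.56e-05). AMOT, which holds YAP at junctions, rose by 1.17 in LATS dKO, 0.74 in YAP/TAZ dKO and 0.34 in RAP2 tKO. The largest rise in YAP/TAZ dKO was that of LLGL1 (0.76), a basolateral polarity protein, and the falls included those of PKP3 (-0.67), a plakophilin, and CLDN15 (-0.52). The difference of PKP3 ran from -1.85 to -0.63 over the alternative settings, so its size is given as a description. LATS dKO also had rises of CXADR and MPP5 (0.53 each), both of tight junctions, and a fall of MARVELD1 (-0.40). JAM3 and PKP4 rose by 0.21 each in RAP2 tKO. BSPRY, which is less well known, fell by 0.85 in RAP2 tKO and by 0.65 in LATS dKO. Over 30 alternative settings these differences ran from -1.64 to -0.81 and from -1.16 to -0.61. BSPRY was also called lower in YAP/TAZ dKO, with differences of -0.56 to -0.31 over 30 alternative settings, against the same WT libraries. The sizes of its 3 differences are given as a description.

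Of 12 repressors of epithelial genes and mesenchymal genes, 11 were tested. YAP/TAZ dKO had 6 higher than WT and 1 lower, beside 23.6% and 27% of all genes. In LATS dKO 4 were higher and 1 lower, beside 16% and 17.8%, and in RAP2 tKO 3 higher and 1 lower, beside 7.4% and 8.57%. SNAI2, a repressor that binds E-boxes, was at 0.181, 0.217 and 0.182 FPKM in WT on 1 kPa and at 1.18, 1.03 and 0.971 in YAP/TAZ dKO. SNAI2, counted among the 6, reached 1 FPKM in YAP/TAZ dKO libraries alone, so these levels are given as a description with no test. ZEB2, a repressor of the same kind, rose by 0.55 (adjusted p = 5.05e-07), from 3.20 ± 0.24 to 5.48 ± 0.13 on 1 kPa. VIM (vimentin), a mesenchymal filament, fell by 0.50 (adjusted p = 5.95e-10), from 223 ± 8.4 to 181 ± 5.4 on 1 kPa and from 222 ± 6.9 to 136 ± 2.5 on 40 kPa. Only TWIST2 (-0.52) fell in LATS dKO and only RBFOX2 (-0.21) in RAP2 tKO, where ZEB1 rose by 0.25, VIM by 0.24 and CDH2 by 0.22. FN1 (fibronectin) rose by 0.57 in LATS dKO and by 0.47 in YAP/TAZ dKO. The genes of this list thus did not all change in 1 direction in YAP/TAZ dKO.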

How the data were processed

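The authors deposited 1 table of gene FPKM per library, with a status, a confidence interval and coordinates for each of 60350 entries, per the file headers. The submitters' processing notes name STAR 2.4.2a, Cufflinks 2.2.1 and the build hg19. Annotation release, strand setting and multiple matches: not given in the sources used here. Overlapping or antisense genes can thus share fragments. Entries of the same symbol were summed (338 symbols), and 92 symbols with a failed status were left out. Genes that reached 1 FPKM in 3 or more libraries were fitted on log2(FPKM + 1) with limma 3.58.1 (R 4.3.3), all 24 libraries in a single model of group means, 16 residual degrees of freedom, a trended prior and two-sided tests in 11 contrasts, each adjusted by Benjamini-Hochberg over 15828 genes. P-values measure the spread between these libraries. The code was tested on simulated data. Ratios are of mean FPKM. Members and lists were chosen with earlier results of these data known. Every member was accounted for; in each contrast up to 5 called members in each direction were to be named, with libraries or the lowest, median and highest of 6 for the leading ones. Replicate numbers were not used to pair the samples in the main fit. Of 12 same-numbered pairs across the 2 gels, 3 correlated above 0.1, beside 2 of 24 other pairs (medians 0.025 and -0.014). This does not settle whether same-numbered libraries belong together. Alternatives were a pseudocount of 0.1, no filter, scaling to a common median ratio, the replicate number as a block, each library left out, the GC-skewed pair left out, and a fit of the compared groups alone. Of the further junction list, 1 gene is counted but not reported here by name.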

Additional observations from a re-analysis of the deposited data

Results flagged for a closer look

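The response of GPRC5A to the stiff gel differed between YAP/TAZ dKO and WT by a test of the difference itself. The mean FPKM went from 3.43 ± 0.40 to 6.14 ± 0.97 in WT and from 0.830 ± 0.19 to 0.489 ± 0.087 in YAP/TAZ dKO (SD, n = 3). The interaction was -0.98 on the log2(FPKM + 1) scale (limma, adjusted p = 0.00137), with all 3 stiff libraries above all soft ones in WT and below them in YAP/TAZ dKO. On the same scale the WT rise was 0.68, while the difference in YAP/TAZ dKO, -0.29, was not called (limma, adjusted p = 0.358). A reversed response is thus not shown by the interaction, which in the main holds the WT rise. At the low level in YAP/TAZ dKO this scale understates a change, and the interval deposited for GPRC5A reached up to 69.5% of the value to either side in a library.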

How the results depend on the processing

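None of the results reversed. Of the called members, 6 of 8 in RAP2 tKO against WT, 14 of 16 in LATS dKO, 18 of 24 in YAP/TAZ dKO and 23 of 26 between LATS dKO and YAP/TAZ dKO kept their call in all 30 settings. Stiffness calls were fewer and less stable. With the compared groups fitted alone, WT, RAP2 tKO and LATS dKO had 0 members called, YAP/TAZ dKO had 1, and the YAP/TAZ dKO interaction had 3. Scaling to a common median ratio gave 4 in WT. The 1 member called in LATS dKO was 0 with a pseudocount of 0.1, with no filter, with scaling, with the block and without the GC-skewed pair. YAP/TAZ dKO had 1 with a pseudocount of 0.1. Without the pair, WT had 5, YAP/TAZ dKO 2 and its interaction 5. With the replicate number as a block, calls were 2 in WT, 3 in RAP2 tKO, 0 in LATS dKO and 0 in YAP/TAZ dKO for stiffness, then 7, 15, 22 and 25 for the genotype comparisons in the order used above, and 0, 0 and 1 for the interactions. Leaving out each library in turn, the stiffness calls ran from 1 to 4 in WT (4 without RAP2 tKO on 40 kPa replicate 3), 3 to 6 in RAP2 tKO (6 without its 40 kPa replicate 1), 0 to 1 in LATS dKO and 0 to 1 in YAP/TAZ dKO. The same ranges were 6 to 9, 15 to 18, 20 to 27 and 24 to 27 for the 4 genotype comparisons, and 0 to 0, 0 to 1 and 1 to 2 for the interactions. The cause of these shifts was not tested. For 9 of the tested members the deposited intervals reached a median of over 20% of the value to either side, beside 11.5% over all tested members. The part of depth in these widths was not tested.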
